A study of Mus musculus with 4 samples.

Results

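The interferon response genes described here are 33 genes that cells switch on when they sense interferon, chosen by gene symbol from a list of known interferon targets. No measured value entered the rule, but the list was drawn up with earlier results of these data known. All 33 had a row among the 17721 genes of the deposited table. They were measured by RNA-seq at postnatal day 63 in epidermis of the back skin, in 2 libraries from LDB2-/- mice and 2 from wild type mice, all C57BL/6. Before RNA extraction the skin was loosened with dispase, a protease that separates the epidermis from the dermis. The labels give no allele, promoter or Cre for LDB2-/-, and nothing in them says whether libraries 1 and 2 of a genotype came from separate animals, so p-values here measure only the spread between these libraries. LDB2, the deleted protein, joins LIM-homeodomain and LIM-only factors into larger transcription complexes.

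Interferons are secreted proteins that warn neighbouring cells of infection. Type I and type III interferons act through the JAK1 and TYK2 kinases to bring STAT2 and IRF9 into a complex that binds the interferon-stimulated response element in target promoters. Interferon gamma signals through its own receptor to another promoter element, the gamma-activated site. The target genes encode RNA sensors, proteins that block viral translation and assembly, and regulators that amplify or damp the response. Keratinocytes of the epidermis, as well as its resident immune cells, can express these genes at rest and induce them strongly on infection.

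The promoters of 24 members were found by gene ID or symbol in a RefSeq promoter table of build GRCm38.p6 (mm10), over 250 bases before to 50 bases after each annotated transcript start. The core of the interferon-stimulated response element was searched as GAAA and GAAA with any 2 bases (NN) between them, and the gamma-activated site as TTCNNNGAA, each on both strands, and overlapping matches were counted. The response element core was found in 10 of 24 members (41.7%), against 1079 of the 27025 genes with a promoter entry (3.99%). The gamma-activated site was found in 5 of 24 members (20.8%), against 2582 of all genes (9.55%). A match is a description of the letters and not a binding site. Below are the 250 bases before the start of 4 members, 2 that were lower in LDB2-/- skin (Irf1 and Stat2), 1 whose genotypes overlapped (Isg15) and 1 that was low in wild type (Rsad2), with matches in capitals, 5′ to 3′ on the strand of the gene. Irf1 is at chr11:53769764-53770013 on the plus strand, Stat2 at chr10:128270248-128270497 on the plus strand, Isg15 at chr4:156200819-156201068 on the minus strand and Rsad2 at chr12:26456453-26456702 on the minus strand.
Irf1: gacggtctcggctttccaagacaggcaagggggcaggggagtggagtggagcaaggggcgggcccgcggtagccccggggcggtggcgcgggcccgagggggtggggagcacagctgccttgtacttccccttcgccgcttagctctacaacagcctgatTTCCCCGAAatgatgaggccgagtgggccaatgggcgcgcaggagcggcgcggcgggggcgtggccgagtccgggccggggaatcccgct
Stat2: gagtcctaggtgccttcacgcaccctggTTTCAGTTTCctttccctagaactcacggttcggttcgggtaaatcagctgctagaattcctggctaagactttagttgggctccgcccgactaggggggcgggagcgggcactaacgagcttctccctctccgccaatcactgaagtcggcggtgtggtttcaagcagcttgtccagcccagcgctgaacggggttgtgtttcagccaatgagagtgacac
Isg15: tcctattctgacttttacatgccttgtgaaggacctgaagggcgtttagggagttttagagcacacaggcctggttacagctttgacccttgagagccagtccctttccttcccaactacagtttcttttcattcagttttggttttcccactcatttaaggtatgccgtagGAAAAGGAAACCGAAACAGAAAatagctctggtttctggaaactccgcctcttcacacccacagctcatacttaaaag
Rsad2: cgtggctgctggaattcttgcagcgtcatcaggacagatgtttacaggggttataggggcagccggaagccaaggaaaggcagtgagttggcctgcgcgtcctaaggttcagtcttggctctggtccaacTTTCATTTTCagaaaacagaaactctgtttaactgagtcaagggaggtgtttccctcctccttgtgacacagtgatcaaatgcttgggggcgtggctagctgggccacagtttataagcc

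Positions are counted from the annotated start, with the first transcribed base as 0. The Irf1 sequence, before the first of its 2 listed starts, held a gamma-activated site at -90 to -82 and no response element core. The capitals of Stat2 are a response element core at -222 to -213, read on the minus strand, and those of Rsad2 one at -120 to -111. Isg15 held 3 overlapping cores in 1 run from -78 to -57. Among members with a promoter entry, the response element core was found in 3 of 9 that were lower in LDB2-/- skin, 3 of 6 that did not pass the test and 4 of 9 that were too low to test. The gamma-activated site was found in 2 of 9, 2 of 6 and 1 of 9 of the same groups.

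**Figure D1:**
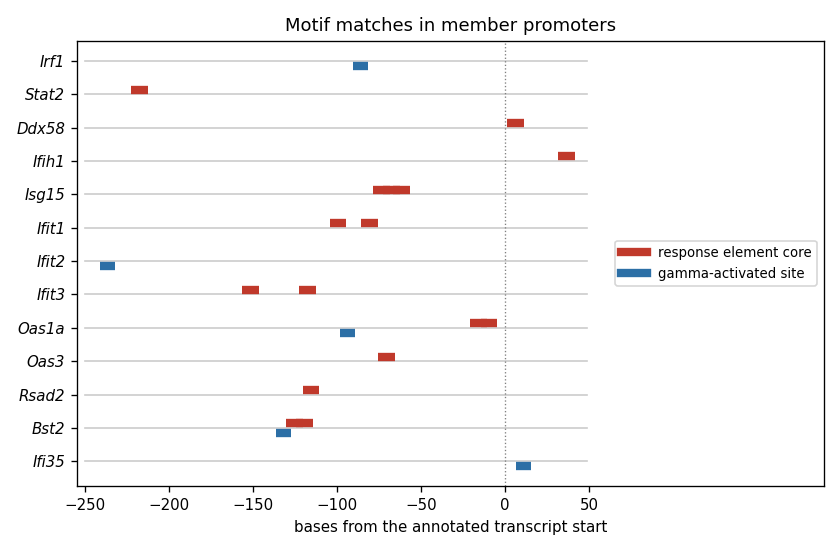
Positions of motif matches (bases from the annotated transcript start, horizontal) in the promoters of the members that held any (vertical, by symbol); grey lines are the 300-base window searched. Isg15, Oas1a and Bst2 held overlapping response element cores, while Irf1, Ifit2 and Ifi35 held the gamma-activated site alone.

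Total counts were 54095522 and 68436842 in LDB2-/- libraries 1 and 2, and 67307536 and 57517162 in wild type libraries 1 and 2. Keratinocyte markers were high in every library, as the labelled tissue requires, and the genotypes differed far beyond the interferon genes. Summed over 9 genes of the growing hair follicle, the level was 85340 and 90260 CPM in LDB2-/- skin, against 150.8 and 512.8 CPM in wild type. Ldb2 itself had 0 and 0 counts in LDB2-/- libraries and 0 and 8 counts in wild type libraries, too few to check the genotype labels. Its paralog Ldb1 did not pass the test (log2 fold change 0.15, SE 0.11, adjusted p = 0.290).

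Of the 33 members, 21 had an FPKM (a read density per kilobase of transcript, adjusted for library size) of 1 or more in at least 2 libraries and were tested with edgeR's quasi-likelihood test at an adjusted p of 0.05. In LDB2-/- skin, 12 of the 21 were lower, 0 were higher and 9 did not pass. Among all 12400 genes tested, 28.8% were lower and 28.4% were higher, so changed genes were common. At an unadjusted p under 0.05 edgeR gave 1 member as higher, Irf7, and DESeq2 also called 1 higher at its adjusted threshold. Of the 12 lower members, 9 were lower by at least 1 on the log2 scale. The median log2 fold change of the tested members was -1.29, ranging from -2.29 to 0.71 with 19 of 21 below 0, against a median of -0.01 for all tested genes. Without wild type library 2 the members' median was -0.58 and 8 were lower, with Usp18, Stat2, Ddx58 and Ifi35 no longer passing. The filter let 3 members, Dhx58, Samd9l and Rtp4, through on the wild type libraries alone, and of these Samd9l was lower.

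Levels below are CPM, counts per 1000000 of a library's total over tested genes after TMM scaling (trimmed mean of M-values), given for library 1 and then library 2 of each genotype. CPM is not per length, so it serves to compare libraries and not genes. Per length, the highest mean FPKM of the members in both genotypes was that of Ifi27l2a, at 18.4 and 11.7 FPKM in LDB2-/- skin, against 14.6 and 46.9 FPKM in wild type. Each fold change is LDB2-/- divided by wild type.

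**Figure D2:**
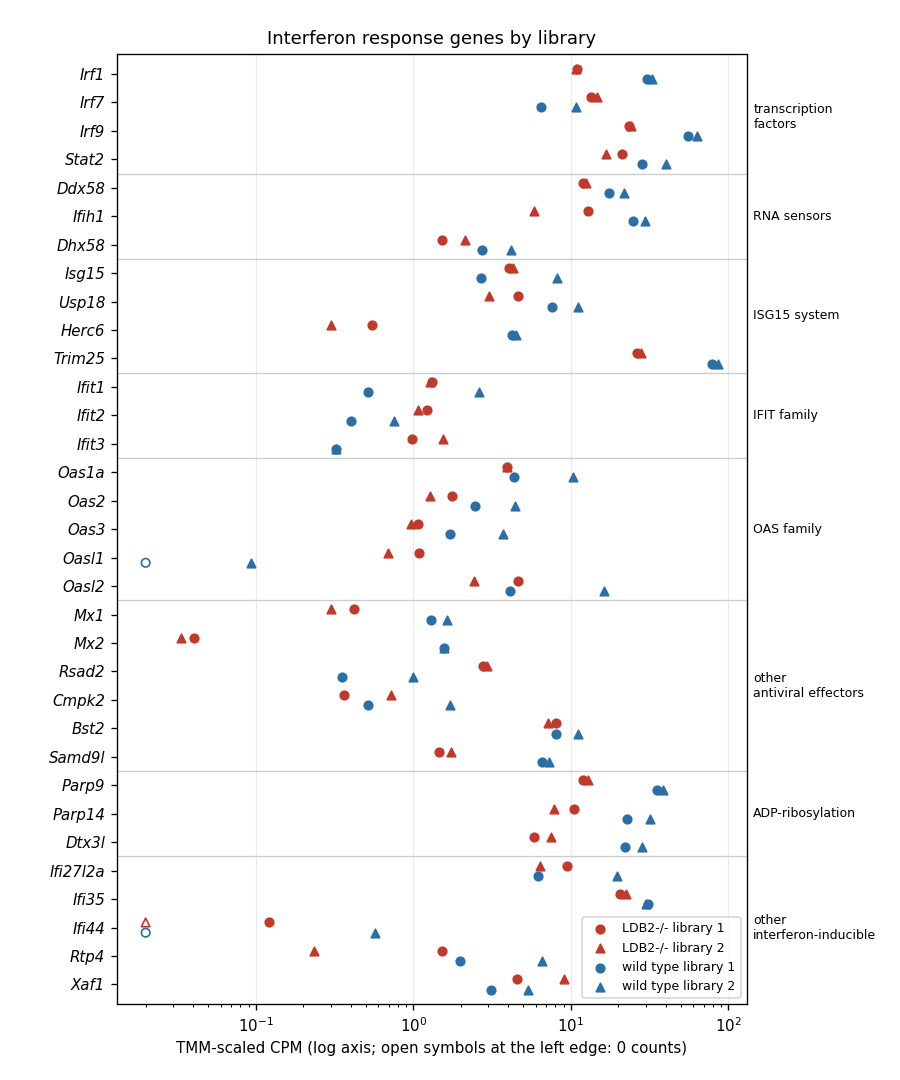
TMM-scaled CPM (log axis) of the 33 members (vertical, grouped by role) in the 2 LDB2-/- libraries and the 2 wild type libraries, 1 symbol per library; open symbols at the left edge stand for 0 counts. Irf1, Irf9, Trim25, Parp9, Parp14 and Dtx3l are well separated by genotype, while wild type library 2 lies far right of wild type library 1 for Isg15, Oasl2 and Ifi27l2a.

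Among the transcription factors, Irf1, Irf9 and Stat2 fell in LDB2-/- skin and Irf7 did not. Irf1, which activates genes of antigen presentation and of the interferon gamma response, was at 10.9 and 10.8 CPM in LDB2-/- skin, against 30.6 and 32.7 CPM in wild type. Irf9, a DNA-binding subunit of the complex that contains STAT2, was at 23.4 and 24.3 CPM in LDB2-/- skin, against 55.3 and 63.4 CPM in wild type. For both genes the LDB2-/- libraries were nearly equal and lay below both wild type libraries. The log2 fold change was -1.54 for Irf1 (SE 0.15, edgeR adjusted p = 0.000645) and -1.32 for Irf9 (SE 0.13, edgeR adjusted p = 0.000676). Stat2, the partner of Irf9 in that complex, was at 21.0 and 16.7 CPM in LDB2-/- skin, against 28.2 and 40.4 CPM in wild type (log2 fold change -0.86, SE 0.22, edgeR adjusted p = 0.0196). Its wild type libraries stood further apart than its LDB2-/- libraries, and without wild type library 2 it did not pass (adjusted p = 0.0832).

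Irf7, the factor that amplifies type I interferon production, ran the other way. It was at 13.4 and 14.6 CPM in LDB2-/- skin, against 6.45 and 10.7 CPM in wild type, so the genotypes did not overlap. Its log2 fold change of 0.71 (SE 0.28) did not pass in edgeR (adjusted p = 0.0772), while it passed in DESeq2 (adjusted p = 0.0386) and, in edgeR, without wild type library 2 (log2 fold change 1.12, adjusted p = 0.0137). Irf7 was the single tested member with both LDB2-/- libraries above both wild type libraries.

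All 3 RNA helicase sensors of the RIG-I family had lower levels in LDB2-/- skin, and 2 passed the test. Ifih1, which encodes the long double-stranded RNA sensor MDA5, was at 12.9 and 5.88 CPM in LDB2-/- skin, against 24.8 and 29.5 CPM in wild type (log2 fold change -1.54, SE 0.37, edgeR adjusted p = 0.0159). Its LDB2-/- libraries differed more from each other than its wild type libraries did. Ddx58, which encodes RIG-I, was at 11.9 and 12.6 CPM in LDB2-/- skin, against 17.6 and 21.6 CPM in wild type (log2 fold change -0.68, SE 0.18, edgeR adjusted p = 0.0227). It was no longer below the threshold without LDB2-/- library 1 (adjusted p = 0.0584) or without wild type library 2 (adjusted p = 0.136). Dhx58, which encodes the regulatory helicase LGP2, was at 1.53 and 2.13 CPM in LDB2-/- skin, against 2.74 and 4.15 CPM in wild type, with no overlap, and did not pass (log2 fold change -0.90, edgeR adjusted p = 0.0764), though it did without LDB2-/- library 2 (adjusted p = 0.0495).

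Genes around the ubiquitin-like modifier ISG15 divided between clear falls and a modifier gene whose wild type libraries disagreed. Trim25, a ubiquitin ligase that acts on RIG-I, had the highest CPM of the members and the smallest adjusted p. It was at 26.2 and 27.9 CPM in LDB2-/- skin, against 78.3 and 86.5 CPM in wild type (log2 fold change -1.61, SE 0.12, edgeR adjusted p = 0.000276). The gap between genotypes was many times the gap within either. Usp18, the protease that removes ISG15 and restrains interferon receptor signalling, was at 4.61 and 3.04 CPM in LDB2-/- skin, against 7.63 and 11.05 CPM in wild type (log2 fold change -1.29, SE 0.32, edgeR adjusted p = 0.0170). Its call was lost without wild type library 2 (adjusted p = 0.0647).

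Isg15 was at 4.05 and 4.27 CPM in LDB2-/- skin, against 2.70 and 8.15 CPM in wild type. The 2 wild type libraries lay on either side of the LDB2-/- libraries, which were nearly equal. The log2 fold change of -0.38 (SE 0.52) did not pass (edgeR adjusted p = 0.552). Its value turned with the wild type library left out, to -0.97 (adjusted p = 0.0423) without library 1 and 0.62 without library 2. Herc6, the main ISG15 ligase of mice, missed the expression filter. It was at 0.544 and 0.303 CPM in LDB2-/- skin, against 4.22 and 4.52 CPM in wild type, and was lower in the edgeR fit with no filter (log2 fold change -3.40, SE 0.42, adjusted p = 0.00257).

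The ADP-ribosylation genes Parp9, Dtx3l and Parp14 were the single role group in which every member passed the test as lower. PARP9 and the ubiquitin ligase DTX3L form a complex, and PARP14 attaches single ADP-ribose units to proteins. Dtx3l was at 5.84 and 7.53 CPM in LDB2-/- skin, against 22.3 and 28.2 CPM in wild type (log2 fold change -1.91, SE 0.22, edgeR adjusted p = 0.00122). Parp9 was at 12.0 and 12.9 CPM in LDB2-/- skin, against 35.1 and 38.3 CPM in wild type (log2 fold change -1.56, SE 0.14, edgeR adjusted p = 0.000578). In both genes both wild type libraries lay far above both LDB2-/- libraries. Parp14 was at 10.5 and 7.88 CPM in LDB2-/- skin, against 22.6 and 31.6 CPM in wild type (log2 fold change -1.56, SE 0.25, edgeR adjusted p = 0.00341). Parp9 and Dtx3l lie on opposite strands of chromosome 16 and share 558 bases, and since the use of strand in counting is not stated, reads from these bases cannot be assigned between them.

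**Figure D3:**
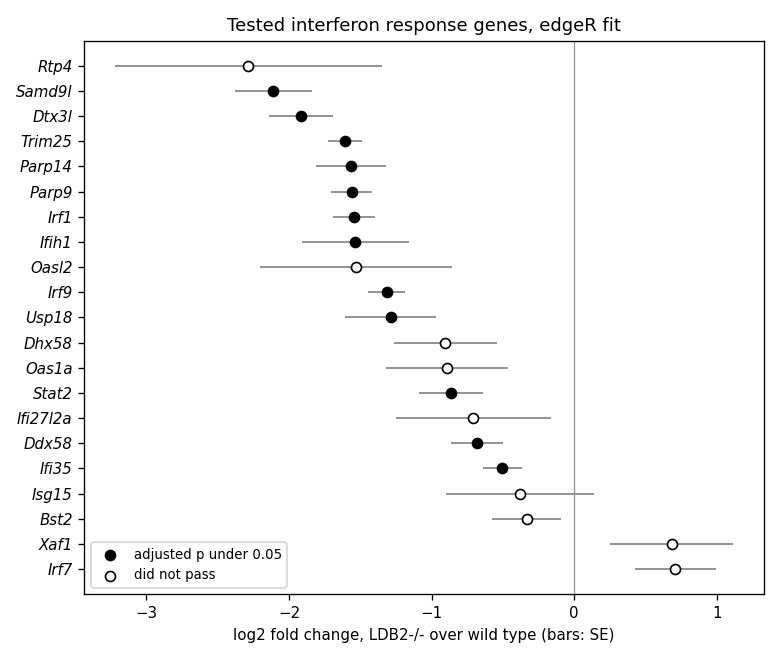
Log2 fold change of LDB2-/- over wild type (horizontal) of the 21 tested members (vertical, by fold change); points are edgeR estimates, bars are 1 SE, filled points passed an adjusted p of 0.05. The 12 filled points lie between -2.11 and -0.50, and Irf7 and Xaf1 are the open points above 0.

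Of 6 direct antiviral effectors, 4 were too low in both genotypes to pass the expression filter. Samd9l, a restriction factor for poxviruses, was at 1.45 and 1.75 CPM in LDB2-/- skin, against 6.61 and 7.23 CPM in wild type, and had the lowest fold change among members that passed (log2 fold change -2.11, SE 0.27, edgeR adjusted p = 0.00162). Bst2, which encodes tetherin and holds budding viruses at the cell surface, was at 8.04 and 7.18 CPM in LDB2-/- skin, against 8.06 and 11.1 CPM in wild type. Here LDB2-/- library 1 and wild type library 1 were at almost the same level, and the difference did not pass (log2 fold change -0.33, SE 0.24, edgeR adjusted p = 0.279).

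Mx2 had 2 and 2 counts in LDB2-/- libraries, against 116 and 101 counts in wild type libraries. Summed by genotype and scaled, the level in LDB2-/- skin was 0.0234 of that in wild type (95% exact interval 0.00633 to 0.0609, counting error only), and Mx2 was lower in the edgeR fit with no filter (adjusted p = 0.00362). Mx1, like Mx2 a dynamin-like GTPase that blocks viral ribonucleoproteins in strains with an intact gene, was at 0.423 and 0.303 CPM in LDB2-/- skin, against 1.295 and 1.64 CPM in wild type, and was lower in the same fit (log2 fold change -2.04, SE 0.58, adjusted p = 0.0387). RefSeq annotates Mx1 and Mx2 of this reference strain as transcribed pseudogenes.

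Rsad2, which encodes the antiviral enzyme viperin, differed in the opposite direction. It had 137 and 176 counts in LDB2-/- libraries, against 26 and 64 counts in wild type libraries. Both LDB2-/- libraries were above both wild type libraries, and in the edgeR fit with no filter Rsad2 was higher (log2 fold change 2.07, SE 0.58, adjusted p = 0.0373). Its neighbour on chromosome 12, Cmpk2, a mitochondrial nucleotide kinase, was at 0.363 and 0.723 CPM in LDB2-/- skin, against 0.512 and 1.72 CPM in wild type, and the genotypes overlapped (adjusted p = 0.350 with no filter).

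In the OAS family, whose enzymes make the short adenylates that activate RNase L, no member passed in the main edgeR fit. Oas1a was at 3.95 and 3.95 CPM in LDB2-/- skin, against 4.36 and 10.3 CPM in wild type (log2 fold change -0.89, SE 0.43, edgeR adjusted p = 0.124). Oasl2 was at 4.59 and 2.44 CPM in LDB2-/- skin, against 4.10 and 16.2 CPM in wild type (log2 fold change -1.53, SE 0.67, edgeR adjusted p = 0.10). In both genes wild type library 1 was close to LDB2-/- library 1, and wild type library 2 was far above the rest. Both turned on that library. Without wild type library 2 the log2 fold change was -0.14 for Oas1a and -0.22 for Oasl2, and without wild type library 1 it was -1.39 for Oas1a (adjusted p = 0.00766) and -2.21 for Oasl2 (adjusted p = 0.00186), both then passing in edgeR. Oasl2 also passed without LDB2-/- library 1 (adjusted p = 0.0398) and in DESeq2 (adjusted p = 0.0295). Oas2 and Oas3 missed the filter, with 1.77 and 1.28 CPM for Oas2 in LDB2-/- skin, against 2.47 and 4.46 CPM in wild type (adjusted p = 0.0694 with no filter), and 1.07 and 0.975 CPM for Oas3 in LDB2-/- skin, against 1.71 and 3.70 CPM in wild type (adjusted p = 0.0687 with no filter). Oasl1, which in mice represses translation of Irf7 mRNA, had 54 and 41 counts in LDB2-/- libraries, against 0 and 6 counts in wild type libraries. The genotypes did not overlap, and Oasl1 did not pass with no filter (adjusted p = 0.0768).

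The IFIT genes, whose proteins bind viral RNA that lacks host cap methylation, all missed the filter. Ifit1 was at 1.31 and 1.28 CPM in LDB2-/- skin, against 0.512 and 2.61 CPM in wild type, with the wild type libraries on either side of the LDB2-/- libraries (adjusted p = 0.789 with no filter). Ifit2 was at 1.23 and 1.08 CPM in LDB2-/- skin, against 0.405 and 0.758 CPM in wild type (adjusted p = 0.267 with no filter). Ifit3 had 49 and 92 counts in LDB2-/- libraries, against 24 and 21 counts in wild type libraries (log2 fold change 1.94, SE 0.64, adjusted p = 0.0593 with no filter). Neither Ifit2 nor Ifit3 overlapped between genotypes, both higher in LDB2-/- skin, and neither passed. Ifit3 has a near-identical copy, Ifit3b, so its counts are uncertain, and Ifit1 lies within Ifit1bl1 of the opposite strand.

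Of the remaining interferon-inducible genes, Ifi35, a partner of the signalling protein NMI, was at 20.5 and 22.4 CPM in LDB2-/- skin, against 30.7 and 30.1 CPM in wild type, the smallest change among members that passed (log2 fold change -0.50, SE 0.13, edgeR adjusted p = 0.0220). It did not pass without LDB2-/- library 1 or without either wild type library. Ifi27l2a, a small membrane protein, was at 9.51 and 6.39 CPM in LDB2-/- skin, against 6.23 and 19.7 CPM in wild type, with overlap (log2 fold change -0.71, SE 0.54, edgeR adjusted p = 0.304). Its direction turned with the library left out, to 0.35 without wild type library 2 and -1.31 (adjusted p = 0.00756) without wild type library 1. It shares 6057 bases with Ifi27 on the other strand. Rtp4, a chaperone of cell surface receptors, was at 1.53 and 0.235 CPM in LDB2-/- skin, against 1.98 and 6.53 CPM in wild type. Its log2 fold change of -2.29 was the lowest of all tested members, and its spread within genotypes was also large (SE 0.93, edgeR adjusted p = 0.0820). With 1 library left out it ran between -4.15 (without LDB2-/- library 1, adjusted p = 0.00338) and -1.18 (without wild type library 2, adjusted p = 0.320), it passed without wild type library 1 (adjusted p = 0.0168), and it passed in DESeq2 (adjusted p = 0.0244). Xaf1, an antagonist of the apoptosis inhibitor XIAP, was at 4.55 and 9.04 CPM in LDB2-/- skin, against 3.13 and 5.35 CPM in wild type (log2 fold change 0.68, SE 0.43, edgeR adjusted p = 0.218), and it passed as higher without LDB2-/- library 1 (adjusted p = 0.0322), while its log2 fold change was 0.10 without LDB2-/- library 2. Ifi44 had 6 and 0 counts in LDB2-/- libraries, against 0 and 37 counts in wild type libraries.

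With no filter, 15 of the 33 members were lower, 1 was higher and 17 did not pass, beside 21.1% lower and 19.7% higher among all 17721 genes. Of the 12 members too low for the filter, 3 were lower (Herc6, Mx1 and Mx2) and 1 was higher (Rsad2). In the authors' deposited table, 17 of the 33 members were lower and 3 were higher (Ifit3, Oasl1 and Rsad2) at an adjusted p under 0.05. Of the 17721 genes in that table, 4182 were lower and 4090 were higher.

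The 2 wild type libraries differed from each other in these genes. Wild type library 2 was above wild type library 1 in 31 of the 33 members, the exceptions being Ifi35 and Mx2, and in 20 of the 21 tested members, against 49.7% of all tested genes. The scaling with no filter gave 30 of 33. Over the 33 members the median difference of log2(CPM + 0.5) between wild type library 2 and library 1 was 0.48, against -0.00 over all tested genes. The difference was 1 or more in 8 of 33 members (24.2%), against 187 of all tested genes (1.51%). This compares 1 library with 1 library and has no test. The LDB2-/- libraries showed no such shift, with library 2 above library 1 in 15 of 33 members and a median difference of -0.02. The wild type libraries also differed outside the interferon genes. Wild type library 2 was above library 1 in 8 of 9 hair follicle growth markers, with a median difference of 1.745. For fibroblast markers this was 1 of 6, with a median difference of -0.82. Library 2 was also above library 1 in 5 of 5 leukocyte markers (median 0.30), 6 of 6 T cell markers (0.13) and 6 of 7 endothelial markers (0.32). For suprabasal keratinocyte markers this was 0 of 6 (-0.28). Whether tissue content differed between these 2 libraries was not tested.

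The gap was 1 or more in 5 tested members (Isg15, Oas1a, Oasl2, Rtp4 and Ifi27l2a), and 0 of these passed in edgeR at an adjusted p of 0.05. It was 1.86 for Oasl2, 1.59 for Ifi27l2a and 1.44 for Isg15. The gap was under 0.5 in 11 tested members, of which 10 were lower. A wide gap also widens the error of the test, so these counts describe the same spread.

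Read without a test, 16 of the 21 tested members had both LDB2-/- libraries below both wild type libraries and 1 had them above, while 4 overlapped. Among all tested genes 41.7% lay below and 40.8% above. The difference between genotypes was larger than the gap within each genotype in 15 of 21 tested members (71.4%), which is near the 75.5% of all tested genes. Over all 33 members, 21 lay below, 5 lay above (Irf7, Rsad2, Oasl1, Ifit2 and Ifit3) and 7 overlapped. The matching share over all 17721 genes was not taken, so these counts cannot be set against it.

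**Figure D4:**
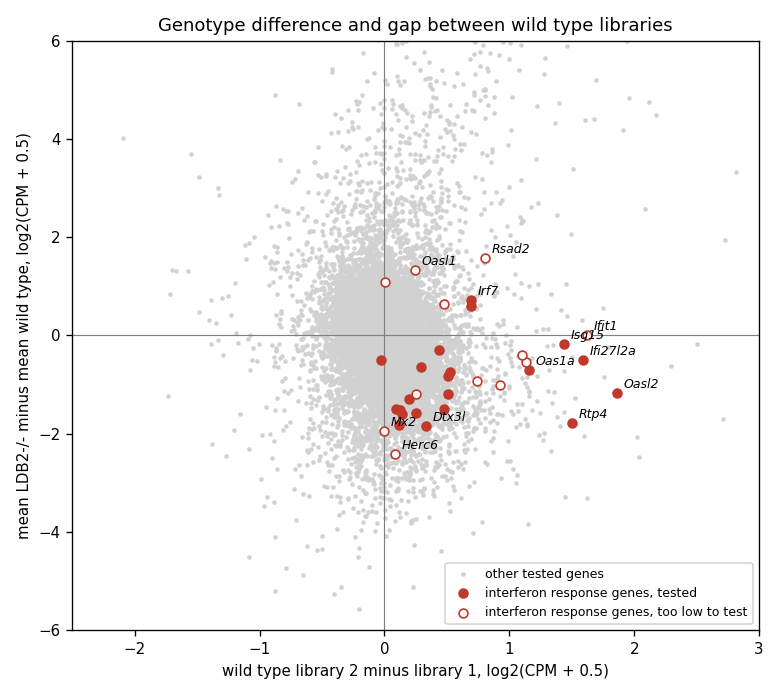
Mean LDB2-/- minus mean wild type (vertical) against wild type library 2 minus library 1 (horizontal), both in log2(CPM + 0.5), for tested members (filled), members too low to test (open) and other tested genes (grey); 92 tested genes lie outside the axes. Nearly all members lie right of 0, and Oasl2, Ifit1, Ifi27l2a, Rtp4 and Isg15 lie furthest right.

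Most genes of the list for interferon receptors and signalling, which also holds inhibitors such as Socs3, were lower in LDB2-/- skin. Among all 12400 tested genes 28.8% were lower and 28.4% were higher. Of 17 genes of interferon receptors and signalling, all tested, 11 were lower, 0 were higher and 6 did not pass, with a median log2 fold change of -1.07. Neither edgeR at an unadjusted p under 0.05 nor DESeq2 gave a higher one (0 and 0). Ifngr1, the ligand-binding chain of the interferon gamma receptor, had a log2 fold change of -2.11 (edgeR adjusted p = 0.000164). The kinase Jak1 was at -1.73 (adjusted p = 0.000210), and the feedback inhibitor Socs3, whose value was the lowest of these genes, at -2.57 (adjusted p = 0.000125). Stat3 was at -1.5 (adjusted p = 0.000378). Both chains of the type I receptor, Ifnar1 and Ifnar2, did not pass. Wild type library 2 was above wild type library 1 in 8 of these 17 genes, with a median difference of -0.03.

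Interferon transcripts themselves had few counts where a row was present. Of 21 interferon ligand genes, 2 had a row in the table, and a missing row is not a measured 0. Ifng had 0 and 0 counts in LDB2-/- libraries and 0 and 4 counts in wild type libraries, and Ifnz had 2 and 10 counts in LDB2-/- libraries and 8 and 2 counts in wild type libraries.

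Among 18 tested nucleic acid sensors and adaptors outside the members, 9 were lower and 0 higher, beside 28.8% and 28.4% of all tested genes. At an unadjusted p under 0.05 and by DESeq2 also 0 were higher. The median log2 fold change was -0.52. Wild type library 2 was above library 1 in 11 of all 21 genes of this list, with a median difference of 0.09. Eif2ak2, the kinase PKR, was at 6.63 and 1.58 CPM in LDB2-/- skin, against 20.6 and 23.1 CPM in wild type (log2 fold change -2.42, edgeR adjusted p = 0.0194). The kinase Ikbke had a log2 fold change of -2.13 (adjusted p = 0.000464), the DNA sensor Aim2 of -1.85 (adjusted p = 0.00360) and the double-stranded RNA receptor Tlr3 of -1.81 (adjusted p = 0.00315).

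The interferon-inducible GTPases, which attack vacuoles that hold pathogens, were lower in LDB2-/- skin and also differed between the wild type libraries. Of 6 tested, 5 were lower and 0 higher in edgeR, beside 28.8% and 28.4% of all tested genes. At an unadjusted p under 0.05 and by DESeq2 also 0 were higher. The median was -1.80, and in 18 of 18 wild type library 2 was above library 1, with a median difference of 0.89. Gbp2 was at 6.06 and 6.45 CPM in LDB2-/- skin, against 15.5 and 26.1 CPM in wild type (log2 fold change -1.73, edgeR adjusted p = 0.00418). Irgm1 was at 4.25 and 3.65 CPM in LDB2-/- skin, against 11.7 and 18.2 CPM in wild type (log2 fold change -1.92, edgeR adjusted p = 0.00284). In both genes the LDB2-/- libraries were close together and wild type library 2 was the highest. Gbp6 had a log2 fold change of -2.36 (adjusted p = 0.00335) and Irgm2 of -1.86 (adjusted p = 0.0169).

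Of 45 other interferon-stimulated genes tested, 24 were lower, 3 were higher (Ube2l6, Isg20 and Plac8) and 18 did not pass, with a median log2 fold change of -0.84. Among all tested genes 28.8% were lower and 28.4% were higher. Wild type library 2 was above library 1 in 40 of all 61 genes of this list, with a median difference of 0.15. Slfn9 (log2 fold change -3.69, edgeR adjusted p = 0.00196), Oas1f (-2.64, adjusted p = 0.000364), Trim34a (-2.43, adjusted p = 0.000733) and Oas1b (-2.41, adjusted p = 0.00219) had the lowest values. In LDB2-/- skin Slfn9 was at 0.846 and 0.471 CPM and Oas1b at 0.645 and 0.874 CPM. The filter can let such low genes through on the wild type libraries alone. How often it did so was not counted for this or the other interferon lists outside the members. Oas1f and Oas1b belong to a cluster of closely related genes that includes Oas1a, so reads may be split between them.

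Markers of the cells that could carry these transcripts also differed between the genotypes. Counts of these and the further marker lists stand beside 28.8% lower and 28.4% higher among all tested genes. Summed over the 33 members, the level was 224.1 and 214.9 CPM in LDB2-/- skin, against 412.7 and 535.9 CPM in wild type. The T cell markers were lower in 6 of 6 tested, with a sum of 109.6 and 129.8 CPM in LDB2-/- skin, against 325.6 and 358.7 CPM in wild type. Of these, Skint1 is itself an epithelial gene, needed for the development of epidermal T cells. The pan-leukocyte markers were lower in 4 of 5, with a sum of 95.6 and 104.7 CPM in LDB2-/- skin, against 153.8 and 192.1 CPM in wild type. In these bulk libraries fewer cells of a type and less RNA per cell cannot be told apart.

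Markers of Langerhans cells, the dendritic cells of the epidermis, were lower in 5 of 8 tested and higher in 1. They summed to 1262 and 1466 CPM in LDB2-/- skin, against 1661 and 1710 CPM in wild type. Cd74 (658.4 and 680.15 CPM in wild type) and Epcam (280.6 and 273.2 CPM) were large parts of that sum and did not pass. Cd207 was lower (log2 fold change -1.64, edgeR adjusted p = 0.000905) and Mfge8 was higher (log2 fold change 1.26, edgeR adjusted p = 0.000840). Basal keratinocyte markers were lower in 7 of 7, with a sum of 10970 and 11150 CPM in LDB2-/- skin, against 26330 and 23890 CPM in wild type. Suprabasal keratinocyte markers were lower in 5 of 6 and higher in 1, with a sum of 4212 and 3959 CPM in LDB2-/- skin, against 26040 and 21450 CPM in wild type. The 12 members that passed as lower thus moved with most markers of T cells, leukocytes, Langerhans cells and both keratinocyte layers. The part of these in the result was not tested.

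Other markers moved the opposite way. Hair follicle growth markers were higher in 9 of 9, endothelial markers in 5 of 5 tested of 7 and fibroblast markers in 4 of 4 tested of 6. Among all tested genes 28.4% were higher. With no filter 6 of 7 endothelial and 4 of 6 fibroblast markers were higher and 0 lower. Those not passing were Kdr, with 0 and 0 counts in LDB2-/- libraries against 10 and 5 in wild type, and Pdgfra and Lum. The filter can let genes through on the LDB2-/- libraries alone, which was not counted here. Endothelial markers summed to 54.2 and 59.6 CPM in LDB2-/- skin, against 4.29 and 7.06 CPM in wild type, and fibroblast markers to 182.4 and 238.3 CPM in LDB2-/- skin, against 79.4 and 44.8 CPM in wild type. Macrophage markers were higher in 5 and lower in 2 of 7 tested, with a sum of 116.6 and 156.3 CPM in LDB2-/- skin, against 97.9 and 104.3 CPM in wild type. Neutrophil markers were higher in 3 of 4 tested, with a sum of 49.8 and 54.3 CPM in LDB2-/- skin, against 22.6 and 13.8 CPM in wild type. Plasmacytoid dendritic cell markers were lower in 1 and higher in 1 of 3 tested, with a sum of 531.1 and 615.3 CPM in LDB2-/- skin, against 775.5 and 645.3 CPM in wild type. Nearly all of that sum was Ly6d, which keratinocytes also express. Il3ra was higher (log2 fold change 2.60, edgeR adjusted p = 0.000690), while Ccr9, too low for the filter, was lower with no filter (log2 fold change -3.59, adjusted p = 0.0216). Siglech had 0 and 5 counts in LDB2-/- libraries, against 20 and 19 counts in wild type libraries, and did not pass with no filter (adjusted p = 0.268). None of the 4 B cell markers was high enough to test, and they summed to 2.02 and 3.13 CPM in LDB2-/- skin, against 0.620 and 0.480 CPM in wild type. Their part in the result was likewise not tested.

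**Figure D5:**
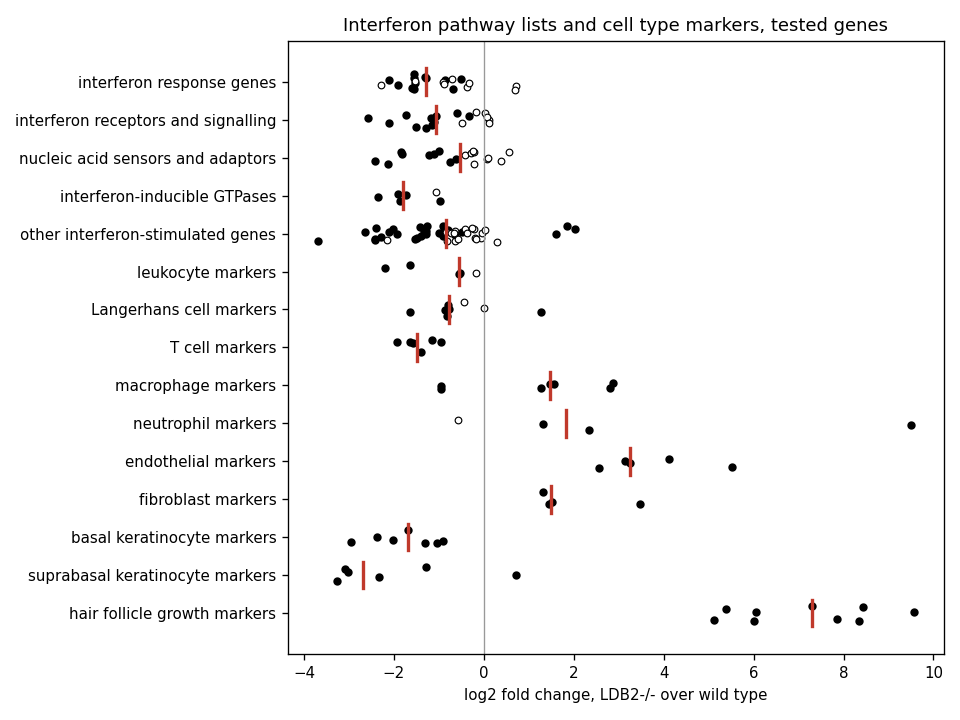
Log2 fold change of LDB2-/- over wild type (horizontal) of the tested genes of each list (vertical); each point is a gene, filled where it passed an adjusted p of 0.05 in edgeR, and red bars are medians. The interferon lists lie mostly below 0, as do leukocyte, Langerhans cell, T cell and keratinocyte markers. Endothelial, fibroblast and hair follicle markers lie above 0. The neutrophil point furthest right is Retnlg, which had 0 counts in both wild type libraries, so its fitted value is no bound.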

How the data were processed

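Back skin epidermis of C57BL/6 mice was profiled in 2 LDB2-/- and 2 wild type libraries. Per the submitters' processing notes, the tools were HISAT2 2.1.0, StringTie 1.3.4d and bcl2fastq 1.8.4, with build mm10, and strand use is not given in the sources used here. The authors deposited whole-number read counts and FPKM per gene, per the file headers, and their own comparison with a signed fold change, held here as a score, and an adjusted p-value per gene. A further 4 deposited columns of the authors' normalized values were not used.

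The 12400 genes that reached an FPKM of 1 in 2 or more libraries were tested across all genes with edgeR's quasi-likelihood test (edgeR 4.0.16, R 4.3.3) on the counts, TMM-scaled, two-sided, Benjamini-Hochberg adjusted over all genes tested, at 0.05. Standard errors are those implied by the F statistic. TMM factors were 0.920 and 0.872 in LDB2-/- and 1.105 and 1.128 in wild type libraries 1 and 2. The biological coefficient of variation was 0.194. On simulated data the test made more false calls than its threshold is meant to allow. Library gaps used log2(CPM + 0.5). Alternatives were limma 3.58.1, DESeq2 1.42.0, other scalings and filters, a replicate block and leaving out each library. Tables and figures used Python 3.11.15, pandas 2.3.3, SciPy 1.17.1 and matplotlib 3.10.9.

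The members and lists were chosen by gene function, with earlier results of these data known. Named genes are all members, Ldb2, Ldb1, interferon ligands with a count and, of each other interferon list, up to 4 tested genes with the largest absolute log2 fold change. A further gene that the rule held by name is not reported here. Ifnar1, Ifnar2, Ube2l6, Isg20, Plac8, Skint1, Cd207, Mfge8, Cd74, Epcam, Il3ra, Ly6d, Ccr9, Siglech, Kdr, Pdgfra, Lum and Retnlg were named after their values were seen.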

Additional observations from a re-analysis of the deposited data

How the results depend on the processing

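The calls of Irf1, Irf9, Trim25 and Parp9 held in all 16 alternatives, and those of Parp14, Dtx3l, Samd9l and Ifih1 in all 15 that tested them, since they missed the filter of a mean FPKM of 5. Leaving out 1 library gave 8 to 16 lower members (main 12) and 0 to 1 higher, and a median log2 fold change of -1.41 to -0.58 (main -1.29), the value nearest 0 being that without wild type library 2. The higher member was Xaf1 without LDB2-/- library 1 and Irf7 without wild type library 2. With a mean FPKM of 5 or more, 10 members were left to test, of which 6 were lower, with a median of -0.87. Among all 8567 genes then tested, 2584 were lower and 2517 higher. Of the 10 members, 7 lay below wild type without overlap (main 16 of 21) and 6 were beyond both gaps (main 15 of 21). With this filter 31 other interferon pathway genes were lower (main 49, with 3 higher). With no filter 1 member was higher, 5 of 33 lay above wild type without overlap (main 1 of 21) and 24 of 33 were beyond both gaps. These 24 are 72.7% of the members, near the 71.4% of tested members and 75.5% of all tested genes. DESeq2 called 14 members lower, Oasl2 and Rtp4 among them, and 1 higher, beside 3832 lower and 3849 higher of all 12400 genes.

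The labels do not say whether equal replicate numbers pair the libraries. The deviations of libraries numbered 1 had r = -0.198, and 1 correlation from 4 libraries cannot decide it. With the replicate number as a block 11 members were lower and 0 higher, median -1.28, and Ifi35 did not pass (adjusted p = 0.0555). The crossed block, chosen after seeing the data, gave 14 lower and 0 higher. Oasl2 (edgeR adjusted p = 0.0461) and Rtp4 (edgeR adjusted p = 0.0144) were among the lower ones.

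Scaling by the library total alone moved the median of all tested genes to -0.33 and the split of calls to 5096 lower and 2248 higher, against 3576 and 3521 with TMM, and the members' median to -1.60. Next, limma on log2(FPKM + 1) gave 5350 lower and 2393 higher. The cause was not tested. Of the 12 members under the filter, 4 passed with no filter. Ifi44, with 0 counts in 1 library of each genotype, showed no difference detectable at this depth.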
